A study of Mus musculus with 22 samples.

Results

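Expression of tumor necrosis factor (Tnf), of 3 subunits of the transcription factor NF-κB (Nfkb1, Nfkb2 and Relb), of 3 IκB proteins (Nfkbia, Nfkbie and Nfkbiz), of the feedback genes Tnfaip3 and Birc3 and of the target gene Icam1 was examined in lungs of mice given Mitsui7 multi-walled carbon nanotubes. The 10 genes are a list set by name, with no threshold on their values but with earlier results of these data known, and were found on the array through the RefSeq transcript that the scanner files pair with each probe. They are 10 of the 20018 genes named in this way and hold 12 of the 55681 probes, since Nfkb1 and Relb have an additional probe each. All 10 genes were above background, that is, brighter than the negative control spots of the array in most mice of at least 1 group. A gene is described on its brightest probe unless stated otherwise.

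NF-κB proteins are held in the cytoplasm by IκB inhibitors. Signals such as the binding of TNF to its receptor activate a kinase complex that marks the inhibitor for destruction, after which the freed subunits enter the nucleus and switch on cytokines, adhesion molecules and survival genes. The same subunits also switch on Nfkbia, Nfkbie and Tnfaip3, whose products shut the pathway down again. A slower branch runs through Nfkb2 and Relb. In the lung, alveolar macrophages are a well known source of TNF after particles have been inhaled, and epithelial and endothelial cells respond to it.

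The animals were female C57BL/6 mice, 8 weeks old when the experiment began. Each received a single intratracheal instillation under anaesthesia with Hypnorm and Dormicum, and the right lung was taken 24 h later. Controls (n = 5) received the vehicle alone, 0.9% NaCl with 10% bronchoalveolar lavage fluid (BAL), and exposed mice received Mitsui7 in this vehicle at 18 µg (n = 6), 54 µg (n = 5) or 162 µg (n = 6). Lung RNA was labelled with Cy5 and hybridized with Cy3-labelled Universal Mouse Reference RNA, a pool from 11 mouse cell lines, and on no array were the dyes exchanged. The value of a gene is thus the log2 ratio of lung to reference RNA in a mouse. A ratio above or below 0 compares lung with the cell line pool, and only differences between groups of mice concern exposure. Each dose was a bolus in liquid and not an inhaled exposure. Mice are numbered as in the sample labels.

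The 22 arrays lay on 7 slides, each scanned on its own day, with 3 or 4 arrays per slide. On 5 slides there was 1 control each, and slides 3 and 6 had none. The lung markers Sftpb, Scgb1a1 and Cldn18 were above background on all 22 arrays, Sftpc on 21 and Ager on 19. Median Cy5 signal over local background spanned 1.52 to 2.05 among control arrays, and the 18, 54 and 162 µg arrays spanned 1.24 to 2.11, 1.37 to 2.07 and 1.18 to 2.50. The group median was highest in controls, at 2.00 against 1.44, 1.49 and 1.72. Probes above background made up 70.4 to 77.5% on control arrays and 56.8 to 77.9%, 57 to 78.9% and 50.3 to 83.5% at the 3 doses. On slide 3, 54 µg mouse 3 and 162 µg mouse 4 lost 1914 and 2619 spots that the scanner software marked as outliers, against 203 to 1180 on the remaining arrays. The Relb probe was lost in both of these mice, and the Nfkbiz probe in 162 µg mouse 4 and 54 µg mouse 2. The part of signal strength in the results was not tested.

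Promoter windows of 7 of the 10 genes were found in the RefSeq table of the GRCm38.p6 build (Tnf, Nfkb2, Nfkbia, Nfkbie, Tnfaip3, Birc3 and Icam1). The 250 bases before the transcription start were searched on both strands for a strict form of the κB consensus, a 10-base pattern of sequences that NF-κB dimers bind. Matches were found for 4 of these 7 genes, and 4.46% of all 27025 genes with a window had one. The windows below, 1 per gene with a match, show where the matches lie. They are written 5′ to 3′ on the strand of the gene, with the matches in capitals.
Nfkbia, chr12:55492648-55492897, minus strand: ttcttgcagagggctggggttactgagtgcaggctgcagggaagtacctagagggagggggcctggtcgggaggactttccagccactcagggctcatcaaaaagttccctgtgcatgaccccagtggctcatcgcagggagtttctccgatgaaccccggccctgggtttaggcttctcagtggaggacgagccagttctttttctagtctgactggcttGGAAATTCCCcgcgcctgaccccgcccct
Tnfaip3, chr10:19015411-19015660, minus strand: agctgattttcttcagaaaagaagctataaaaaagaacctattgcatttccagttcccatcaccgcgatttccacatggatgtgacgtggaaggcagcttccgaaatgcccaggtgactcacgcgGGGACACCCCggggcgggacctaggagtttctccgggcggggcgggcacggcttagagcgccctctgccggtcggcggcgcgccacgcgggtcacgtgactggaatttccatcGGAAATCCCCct
Nfkb2, chr19:46304487-46304736, plus strand: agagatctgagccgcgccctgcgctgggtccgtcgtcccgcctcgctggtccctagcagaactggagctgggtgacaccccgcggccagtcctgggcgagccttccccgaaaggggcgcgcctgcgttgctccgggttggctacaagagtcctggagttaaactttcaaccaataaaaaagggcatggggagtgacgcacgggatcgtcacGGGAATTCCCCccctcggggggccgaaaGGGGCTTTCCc
Nfkbie, chr17:45555450-45555699, plus strand: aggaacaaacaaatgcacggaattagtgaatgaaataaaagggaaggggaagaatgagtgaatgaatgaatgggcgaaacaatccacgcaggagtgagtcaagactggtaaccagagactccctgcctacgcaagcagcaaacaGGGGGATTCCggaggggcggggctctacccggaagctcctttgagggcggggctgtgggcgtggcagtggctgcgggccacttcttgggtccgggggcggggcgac
The match of Nfkbia lies 20 to 29 bases before the start, and the matches of Tnfaip3 lie 3 to 12 and 116 to 125 bases before it. In Nfkb2 the longer run of capitals holds 2 overlapping matches, between 29 and 39 bases before the start, and the other match lies 2 to 11 bases before it. Nfkb2 has 2 further windows with 1 match each. The match of Nfkbie lies 97 to 106 bases before the start. The windows of Tnf, Birc3 and Icam1 held no match to this strict form. Sequences that depart from it were not counted, so a window without a match can still hold a κB site. A match describes the sequence alone, and binding was not measured.

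At 162 µg, 3 of the 10 genes were called, and all 3 were higher than in controls. They were Nfkbia, Birc3 and Icam1, raised 1.87- to 1.99-fold. For a call, limma had to give an adjusted p no higher than 0.05 together with a change of at least 1.5-fold. By this rule 6.84% of the 16429 named genes above background were called at 162 µg in either direction, and 3.32% were called higher. In bulk lung, more cells of a type and more RNA per cell cannot be told apart.

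No member was called at 18 µg or at 54 µg in limma, where 6 and 5 of the 10 had an unadjusted p under 0.05, as did 22.3% and 13.8% of all genes. The share of all genes called was 2.06% at 18 µg (0.633% higher) and 0.353% at 54 µg (0.219% higher). At 162 µg the unadjusted p was under 0.05 for 7 of the 10 and for 28.8% of all genes.

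On the brightest probes the fitted changes of all 10 genes lay above 0 at each dose. Of all genes, 46.4%, 47.4% and 48.8% did so at 18, 54 and 162 µg. The additional Nfkb1 probe lay below 0 at each dose. At 18 and 162 µg only 6 and 8 of the 10 were above 0 when arrays were centred on their median, and 4 and 6 without normalization. At 162 µg 9 were above 0 with the Cy5 channel alone, without a slide term, with the median over probes or with the compared groups only. For 18, 54 and 162 µg the median log2 fold change of the 10 genes was 0.35, 0.40 and 0.40, beside medians over all genes of -0.02, -0.01 and -0.01. Median centring moved the median of all genes to -0.26 at 18 µg and -0.18 at 162 µg. Without normalization it stood at -0.42, 0.13 and -0.21 for 18, 54 and 162 µg. Relative to that shifted median, 9 of the 10 genes at 18 µg and all 10 at 54 and 162 µg were higher with both settings.

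**Figure D1:**
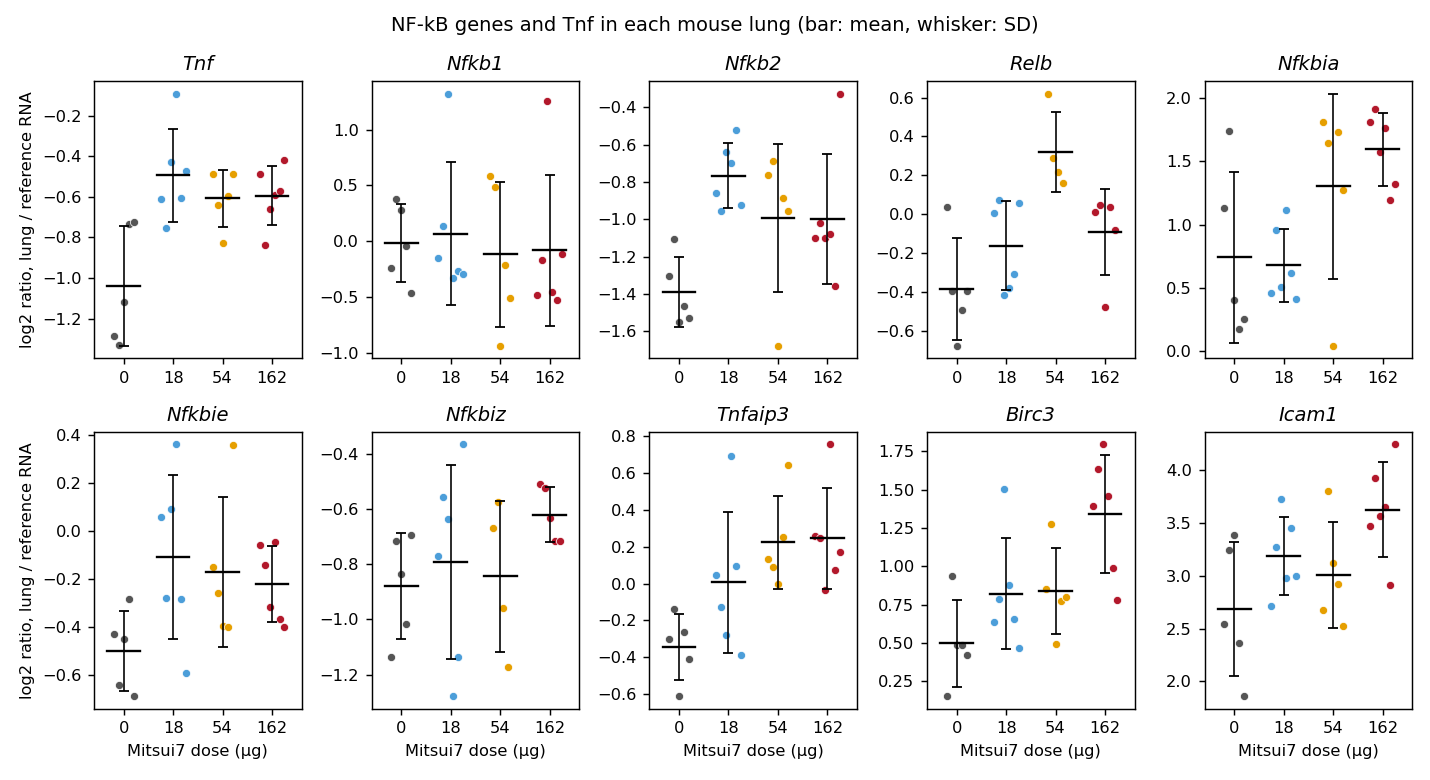
Log2 ratio of lung to reference RNA (vertical axes, each gene on its own scale) in every mouse at 0, 18, 54 and 162 µg Mitsui7; points are mice, horizontal bars group means and whiskers SD. Birc3 and Nfkbia averaged 1.34 and 1.60 at 162 µg against 0.50 and 0.74 in controls, and 54 µg mouse 3 lies far below its group for Nfkb2 and Nfkbia.

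Tnf encodes the cytokine at the head of the cascade. Its log2 ratio in the controls was -1.29, -1.33, -1.12, -0.73 and -0.73. At 18 µg it ran from -0.76 to -0.09 with a median of -0.54, and at 54 µg the mice stood at -0.48, -0.64, -0.83, -0.59 and -0.49. At 162 µg the ratios ran from -0.84 to -0.42 with a median of -0.58. At 18, 54 and 162 µg, 5 of 6, 4 of 5 and 5 of 6 mice lay above every control, so that 1 mouse per dose overlapped with the controls. The log2 fold change was 0.49 (SE 0.13, adjusted p = 0.0744) at 18 µg, 0.38 (SE 0.14, adjusted p = 0.407) at 54 µg and 0.39 (SE 0.13, adjusted p = 0.0991) at 162 µg, and Tnf was not called. The probe was dim, with a Cy5 signal of 90 to 258 units over its 10 spots, and the scanner software marked it well above background on 19 of 22 arrays. With the Cy5 channel read alone the change at 18 µg was 0.70 (adjusted p = 0.0444) and was called. Without a slide term it was 0.55 (adjusted p = 0.0471) and with slide as a random block 0.52 (adjusted p = 0.028), both under 1.5-fold and not called. Median centring gave 0.33 (adjusted p = 0.478) and no normalization 0.17 (adjusted p = 0.794).

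Nfkb1 encodes p105, the precursor of the p50 subunit. Control ratios were -0.24, 0.38, 0.28, -0.04 and -0.46, and the log2 fold changes of 0.32, 0.28 and 0.14 (SE 0.24 to 0.26) at 18, 54 and 162 µg were not called. Mouse 3 at 18 µg and mouse 3 at 162 µg, which shared slide 4, had ratios of 1.33 and 1.26, while the other exposed mice lay between -0.94 and 0.59. The additional Nfkb1 probe gave these same mice -0.50 and -0.73, the lowest values of their groups. Its fold changes of -0.02, -0.13 and -0.16 (SE 0.09 to 0.10) were not called either. The probes carry the same transcript name, but their correlation over the 22 mice was -0.34. The direction for Nfkb1 thus depended on the probe that was read.

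Nfkb2 encodes p100, the precursor of p52 and itself an inhibitor. Its ratios in controls were -1.30, -1.10, -1.55, -1.46 and -1.53. All 6 mice at 18 µg lay above these, from -0.96 to -0.52 with a median of -0.78. At 54 µg the ratios were -0.76, -0.69, -1.68, -0.89 and -0.96, with mouse 3 below every control and the other 4 mice above them. At 162 µg they ran from -1.36 to -0.33 with a median of -1.09, and 5 of 6 mice lay above the controls. The log2 fold change was 0.64 (SE 0.18, adjusted p = 0.0855) at 18 µg, 0.40 (SE 0.20, adjusted p = 0.602) at 54 µg and 0.42 (SE 0.18, adjusted p = 0.232) at 162 µg. Nfkb2 was not called at any dose. Without 162 µg mouse 6, the highest of its group, the change at 18 µg was 0.70 (adjusted p = 0.031) and was called. With median centring it was 0.23 (adjusted p = 0.694) and without normalization 0.07 (adjusted p = 0.945).

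Relb, the partner of p52 in the slower branch, had control ratios of 0.03, -0.40, -0.68, -0.50 and -0.40. The 4 mice at 54 µg with a value stood at 0.62, 0.29, 0.22 and 0.16, all above the controls. At 18 µg the ratios ran from -0.42 to 0.07 with a median of -0.15, and the 5 mice at 162 µg stood at 0.01, 0.05, -0.48, 0.04 and -0.08. Both of these groups overlapped with the controls. The log2 fold change was 0.25 (SE 0.12, adjusted p = 0.311) at 18 µg, 0.66 (SE 0.13, adjusted p = 0.0544) at 54 µg, where the fit lacks mouse 3, and 0.35 (SE 0.12, adjusted p = 0.094) at 162 µg, where it lacks mouse 4. The additional probe had a value in all mice and gave 0.32, 0.60 and 0.44 (adjusted p = 0.229, 0.0984 and 0.0508), and the probes correlated at 0.86 over 20 mice. On it, 54 µg mouse 3 had the lowest ratio of its group, -0.50, inside the range of the controls. On the brightest probe the change at 54 µg was called when 18 µg mouse 4 or 6, 54 µg mouse 3 or 5 or 162 µg mouse 4 was left out (0.66 to 0.70, adjusted p = 0.0297 to 0.0482).

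Nfkbia encodes IκBα, the inhibitor that is rebuilt soonest once NF-κB is in the nucleus. Its ratios in controls were 1.13, 1.74, 0.40, 0.18 and 0.25, with mice 1 and 2 far above the rest. At 18 µg they ran from 0.41 to 1.11 with a median of 0.56, inside the range of the controls. The 54 µg mice stood at 1.81, 1.65, 0.04, 1.73 and 1.27, so that 4 were high and mouse 3 was the lowest of all 22. At 162 µg the ratios ran from 1.19 to 1.92 with a median of 1.67, and 3 of 6 mice lay above every control. Nfkbia rose at 162 µg by 0.99 on the log2 scale (1.99-fold, SE 0.29, adjusted p = 0.0486). Its change was 0.05 (SE 0.29, adjusted p = 0.962) at 18 µg and 0.71 (SE 0.31, adjusted p = 0.512) at 54 µg. Without 54 µg mouse 3 the change at 54 µg was 1.02 (adjusted p = 0.0342) and was called. The call at 162 µg held in only 5 of the 22 fits with 1 mouse left out, those without control 2, 18 µg mouse 1 or 4 or 54 µg mouse 3 or 5. In the other 17 the change was 0.85 to 1.11 with adjusted p = 0.0503 to 0.177. It was also lost with 5 of the 10 other settings that can alter a ratio, where the change was 0.61 to 1.07.

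Nfkbie encodes IκBε. Its control ratios of -0.69 to -0.28 overlapped with those of mice given 18 µg (-0.59 to 0.36), 54 µg (-0.40 to 0.36) and 162 µg (-0.40 to -0.04). The log2 fold changes of 0.37 (SE 0.16, adjusted p = 0.275), 0.32 (SE 0.17, adjusted p = 0.671) and 0.27 (SE 0.16, adjusted p = 0.426) did not pass the test. Nfkbiz encodes IκBζ, a nuclear IκB protein that helps to switch on a later set of targets. Its ratios of -1.14 to -0.69 in controls also overlapped with those of every dose, and its changes of 0.14, 0.15 and 0.25 (SE 0.17 to 0.20) did not pass the test.

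Tnfaip3 encodes A20, an enzyme that edits ubiquitin chains and shuts off signalling from the TNF receptor. In controls its ratios were -0.30, -0.14, -0.61, -0.26 and -0.41. The 54 µg mice stood at 0.13, 0.09, -0.0022, 0.25 and 0.64, and at 162 µg the range was -0.03 to 0.75 with a median of 0.21. Every mouse of both groups thus lay above every control. At 18 µg the range was wide, -0.39 to 0.69 with a median of -0.04, and 4 of 6 mice lay above the controls. The log2 fold change was 0.26 (SE 0.17, adjusted p = 0.52) at 18 µg, 0.47 (SE 0.18, adjusted p = 0.435) at 54 µg and 0.52 (SE 0.17, adjusted p = 0.0812) at 162 µg, and was not called. At 162 µg it was called in the deposited log2 table (0.59, adjusted p = 0.0449), with the Cy5 channel alone (0.65, adjusted p = 0.0467) and without a slide term (0.59, adjusted p = 0.0457). It fell to 0.19 with median centring and to 0.17 without normalization, and was called in neither.

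Birc3 encodes cIAP2, a ubiquitin ligase at the TNF receptor that favours cell survival. Its ratios in controls were 0.15, 0.94, 0.49, 0.49 and 0.42. At 162 µg they ran from 0.78 to 1.796 with a median of 1.43, and 5 of 6 mice lay above every control. At 18 µg the range was 0.47 to 1.51 with a median of 0.72, and at 54 µg the mice stood at 0.85, 1.27, 0.50, 0.78 and 0.80. In each of these groups only 1 mouse lay above all controls. Birc3 rose at 162 µg by 0.90 on the log2 scale (1.87-fold, SE 0.15, adjusted p = 0.0018). The changes at 18 µg (0.46, SE 0.15, adjusted p = 0.133) and 54 µg (0.55, SE 0.16, adjusted p = 0.221) did not pass the test. Without control 2, the highest control, the change at 18 µg was 0.60 (adjusted p = 0.049) and was called. With median centring it was 0.20 (adjusted p = 0.688) and without normalization 0.04 (adjusted p = 0.97). The call at 162 µg held in 22 of 22 fits with 1 mouse left out (0.78 to 1.04, adjusted p of 0.000879 to 0.0117). It was lost with 4 of the 10 other settings, where the change was 0.61 to 0.86. The Cy3 reference signal of the Birc3 probe was low, 65 to 363 units beside array medians of 33 to 114.

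Icam1, a classical target of NF-κB, encodes the adhesion molecule to which leukocytes bind on endothelium and epithelium. Its ratios in controls were 2.55, 3.24, 3.39, 2.37 and 1.86, and at 162 µg they ran from 2.92 to 4.25 with a median of 3.61. Here 5 of 6 mice lay above every control. At 18 µg the range was 2.71 to 3.73 with a median of 3.13, and at 54 µg the mice stood at 2.67, 3.81, 3.12, 2.92 and 2.52. Both of these groups overlapped with the controls. Icam1 rose at 162 µg by 0.91 on the log2 scale (1.88-fold, SE 0.24, adjusted p = 0.0322). It did not pass the test at 18 µg (0.63, SE 0.24, adjusted p = 0.204) or at 54 µg (0.39, SE 0.26, adjusted p = 0.766). The call was lost without control 3, 4 or 5 or 162 µg mouse 3 (0.74 to 0.96, adjusted p = 0.0629 to 0.129), and with 5 of the 10 other settings (0.54 to 0.95). In the Cy3 reference channel the Icam1 probe was dim, with 49 to 237.5 units beside array medians of 33 to 114.

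**Figure D2:**
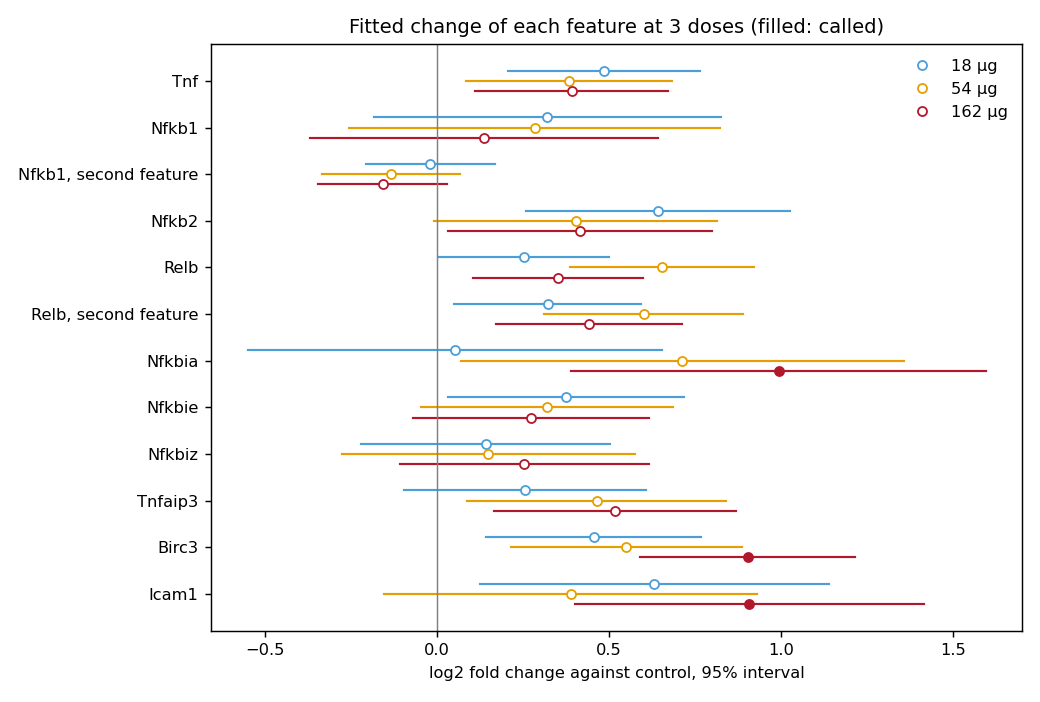
Fitted log2 fold change against control (horizontal axis) of the 12 probes at 18, 54 and 162 µg, with 95% intervals from limma; filled points are called, and "second feature" is the additional probe. The 3 filled points, at 0.90, 0.91 and 0.99, are Birc3, Icam1 and Nfkbia at 162 µg, and the additional Nfkb1 probe lies at -0.02, -0.13 and -0.16.

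Members for which every exposed mouse lay above every control numbered 1 of 10 at 18 µg (Nfkb2), 2 of 10 at 54 µg (Relb, with 4 mice, and Tnfaip3) and 1 of 10 at 162 µg (Tnfaip3). The shares over all genes were 1.42%, 1.51% and 3.72%.

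The doses were then compared with each other. No member was called between 162 and 18 µg, between 54 and 18 µg or between 162 and 54 µg in limma, and 4.98%, 0.0304% and 0% of all genes were. The unadjusted p was under 0.05 for 2, 2 and 3 members, and for 26.5%, 14.9% and 12.2% of all genes. The widest gap was that of Nfkbia, 0.94 higher at 162 than at 18 µg (SE 0.27, adjusted p = 0.0566), with 6 of 6 mice above every 18 µg mouse. Birc3 was 0.45 higher (SE 0.14, adjusted p = 0.084). Tnf differed by -0.09 between these doses (95% interval -0.36 to 0.17) and Nfkb2 by -0.23 (95% interval -0.59 to 0.13). The fitted change was largest at 162 µg for Nfkbia, Birc3 and Icam1, at 54 µg for Relb and at 18 µg for Tnf and Nfkb2, and none of these differences between doses passed the test.

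Each exposed mouse was also set against the control on its own slide, which was possible for 11 exposed mice on 5 slides. Tnf, Nfkb2 and Icam1 were above the control of the slide in 11 of 11 mice, by 0.07 to 0.84, 0.0053 to 1.01 and 0.03 to 1.60. Relb, Nfkbie, Tnfaip3 and Birc3 were above it in 10 of 11, Nfkbia in 9 of 11, Nfkb1 in 7 of 11 and Nfkbiz in 7 of 10. For Nfkbia both exceptions were 18 µg mice, on slides 1 and 2 with the highest controls (differences of -0.67 and -0.78). Differences on a slide share their control and are not independent.

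**Figure D3:**
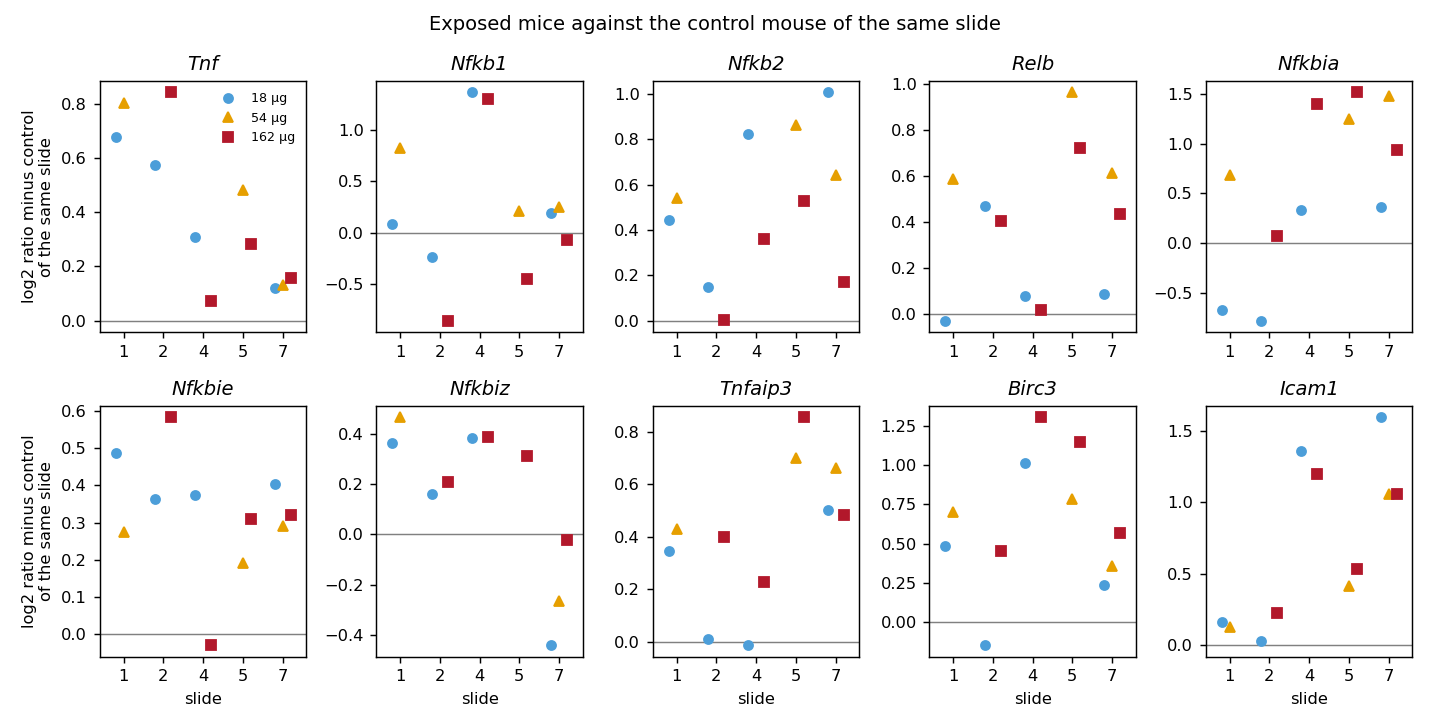
Log2 ratio of each exposed mouse minus that of the control mouse on its slide (vertical axes) for the 5 slides with a control (horizontal axes, slide number); symbols give the dose. For Tnf, Nfkb2 and Icam1 all 11 differences lie above 0, and for Nfkbia the 2 below 0 are 18 µg mice on slides 1 and 2.

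The 10 genes were compared with each other from mouse to mouse. Over the 22 mice, which share dose groups and slides, the 45 pairs of members had a median correlation of 0.29 and 8 pairs exceeded 0.5. Pairs with Relb or Nfkbiz rest on at most 20 mice, those with a value. The closest pairs were Nfkbie with Tnfaip3 (r = 0.69), Birc3 with Icam1 (r = 0.63) and Nfkbia with Birc3 (r = 0.61). With dose and slide removed these were 0.81, 0.05 and 0.70, and the median over all pairs was 0.10. The lowest pairs were Nfkbiz with Nfkbie (r = -0.39) and with Tnfaip3 (r = -0.37), which were -0.75 and -0.84 with dose and slide removed.

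The genes outside the set whose pattern over the 22 mice was most like the mean of the 10 standardized ratios were Ch25h (r = 0.86), which encodes cholesterol 25-hydroxylase, Cish (r = 0.85), an inhibitor of cytokine signalling, Plaur (r = 0.84), the urokinase receptor, Tmem213 (r = 0.84) and Ctps (r = 0.83), which encodes CTP synthase. The median r over 16419 candidate genes was -0.01, and 104 genes exceeded 0.7. At 162 µg the log2 fold change was 2.18 for Ch25h, 0.95 for Cish, 0.74 for Plaur, 2.14 for Tmem213 and 1.91 for Ctps. These are given without a test, since the mean of the 10 genes that chose them was itself higher in every 162 µg mouse than in every control.

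The rest of the pathway was read from 5 lists of 75 genes in all, of which 73 were above background. None of the 73 was called at 18 µg in limma, where 14 had an unadjusted p under 0.05, a share of the list no higher than the 22.3% of all genes. At 54 µg 1 gene was called, higher, and at 162 µg 9 were called, 8 of them higher. Of all genes, 2.06%, 0.353% and 6.84% were called at 18, 54 and 162 µg, and 3.32% were called higher at 162 µg. At 54 and 162 µg 14 and 32 of the 73 had an unadjusted p under 0.05, beside 13.8% and 28.8% of all genes. The median log2 fold change of the 73 was 0.10, 0.11 and 0.17. The number called at 54 µg was 0 without control 1, control 3 or 54 µg mouse 2, was 2 without 54 µg mouse 1 and 4 without 54 µg mouse 3. At 162 µg it was 5 without control 3 or 162 µg mouse 2.

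Among the other Rel and IκB proteins, 1 of 4 genes was called at 162 µg. This was Bcl3, a nuclear IκB protein that binds p50 and p52, whose ratio averaged -0.13 ± 0.26 (SD, n = 5) in control lungs and 0.80 ± 0.27 (SD, n = 6) after 162 µg, a rise of 0.92 (SE 0.24, adjusted p = 0.0316). Rela, the main activating subunit, had changes of 0.21, 0.17 and 0.12 and was not called, and Rel was not above background. Of 11 TNF receptors and ligands, 1 was called at both 54 and 162 µg. This was Tnfrsf12a, the receptor for the TNF relative TWEAK, whose control ratio of -2.50 ± 0.16 (SD, n = 5) compares with -1.09 ± 0.38 (SD, n = 5) after 54 µg and -0.88 ± 0.47 (SD, n = 6) after 162 µg. It rose by 1.28 (SE 0.19, adjusted p = 0.0133) and 1.48 (SE 0.18, adjusted p = 0.000243). The TNF receptor Tnfrsf1a had a change of 0.53 at 162 µg (adjusted p = 0.0294, under 1.5-fold) and Tnfrsf1b one of -0.22 (adjusted p = 0.69). Rela and both receptors are named for their role and after their values were seen.

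Of 22 adaptors and kinases, 2 were called at 162 µg, in opposite directions. Traf1, an adaptor of TNF receptors that is itself known as an NF-κB target, averaged 2.91 ± 0.11 (SD, n = 5) in control lungs and 1.72 ± 0.38 (SD, n = 6) after 162 µg, a change of -0.93 (SE 0.14, adjusted p = 0.000929). Map3k8, the kinase TPL2, rose by 0.71 (SE 0.17, adjusted p = 0.0206). None of 19 other brakes and ubiquitin enzymes was called at 162 µg in limma, where 6 had an unadjusted p under 0.05, against 28.8% of all genes, and the median was 0.19. Over all genes, 6.84% were called at 162 µg and 3.32% were called higher. Of 17 other target genes, 13 had changes above 0 at 162 µg and 5 were called, all higher. These were the survival gene Bcl2l1 (0.87), the stress gene Ier3 (0.86), Sod2 (0.85), the mitochondrial superoxide dismutase, Selp (0.81), which encodes P-selectin of endothelium and platelets, and the neutrophil chemokine Cxcl2 (0.62), with adjusted p = 0.00522 to 0.0467. Vcam1, a further adhesion molecule of this list, averaged 0.03 ± 0.29 (SD, n = 5) in control lungs and -0.54 ± 0.26 (SD, n = 6) after 162 µg. It was not called, and it is named after its values were seen.

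**Figure D4:**
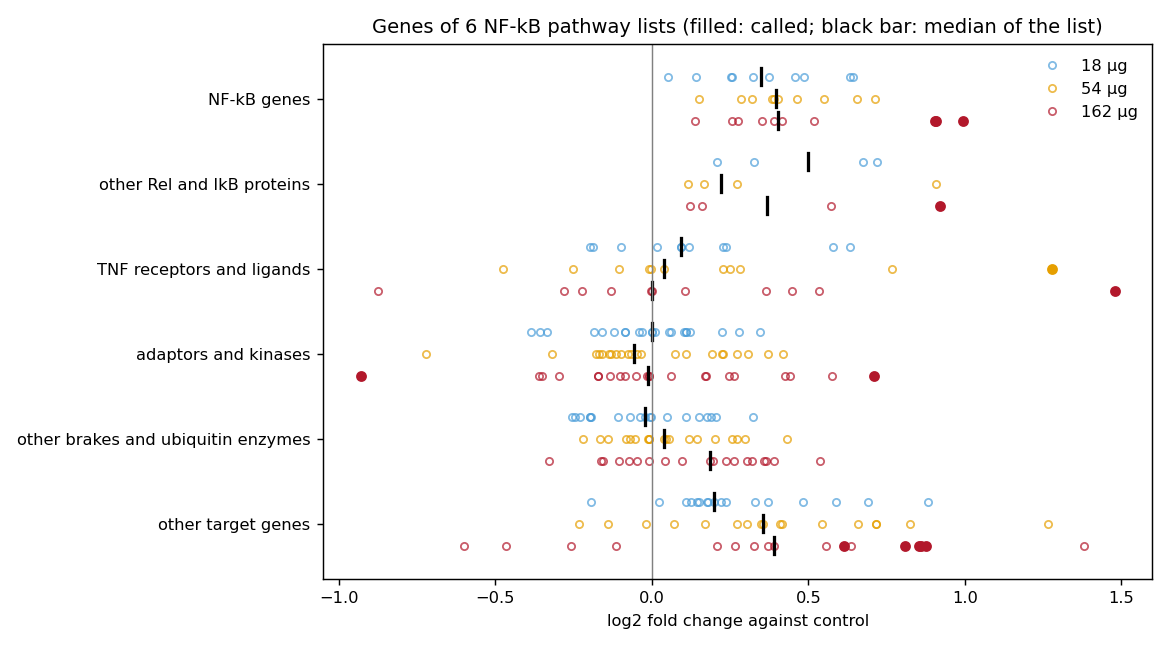
Log2 fold change against control (horizontal axis) of the genes above background in the list of 10 members and in 5 further lists, at 18, 54 and 162 µg; circles are genes, filled where called, and black bars are list medians. At 162 µg the medians were 0.40 for the members, 0.37 for the other Rel and IκB proteins, 0.39 for the other targets and 0.19 for the other brakes, against 0.0011 for receptors and ligands and -0.01 for adaptors and kinases.

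Cell type markers were read beside these genes. Of 7 neutrophil markers on the array, all above background, 6 were higher at 162 µg and 1 was called (Il1r2, 2.36, SE 0.48, adjusted p = 0.00751), with a median change of 0.64. Their summed Cy5 signal ran from 48126.5 to 302342 in controls and from 16012.5 to 338741 at 162 µg, and their mean log2 ratio from 2.10 to 4.59 and from 2.54 to 4.72. The control at 4.59 was mouse 2, which also had the highest Nfkbia and Birc3 of the controls. Without it the changes at 162 µg were 1.23 for Nfkbia, 1.04 for Birc3 and 1.08 for Icam1. Of 7 macrophage markers, all above background, only 3 were higher at 162 µg, and the median change was -0.06. Marco was called higher (1.51, SE 0.28, adjusted p = 0.0046), while Siglec1 (-0.44) and Adgre1 (-0.41) were among the lower ones and were not called. The summed signals of the 7 were 52848.5 to 117643 in controls and 28489.5 to 206436 at 162 µg. The B cell marker Ms4a1 was called lower at 162 µg (-0.89, SE 0.20, adjusted p = 0.0126). The part of cell composition in the changes of the 10 genes was not tested.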

How the data were processed

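Per the file headers, the authors scanned the arrays with Agilent Feature Extraction 10.7.3.1 and deposited median Cy5 and Cy3 intensity per spot, with outlier flags. They also deposited log2 ratios of the same arrays, whose normalization is not given in the sources used here. All 55681 rows matched, column medians were -0.0516 to -0.0166, and each column correlated best with its own array (r = 0.8343 to 0.9979).

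From the intensities, outlier and control spots were left out, no background was subtracted, loess (span 0.3) was applied within arrays and spots of a probe were summarized by their median. Dose and slide were fitted in limma 3.58.1 (R 4.3.3) with Benjamini-Hochberg adjustment over 55681 probes, of which 26413 could be named. A probe was above background where Cy5 exceeded the trimmed mean (5%) plus 3 trimmed SD of 308 negative control spots in 80% or more of a group's arrays. Samples were grouped by their labels, each sample being a mouse, and their number limits the precision.

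The alternatives were normexp correction (on median signals, since the files give no mean foreground), median centring, no normalization, quantile normalization, Cy5 alone, the deposited ratios, no slide term, slide or replicate number as a block, only the compared groups, the median over probes, other filters and thresholds, and each mouse left out. In simulated data for 162 µg against control (51672 probes), 10%, 90%, 100% and 100% of changes of 0.5, 1, 2 and 3 on the log2 scale were recovered. A change of 0.5 lies under the 1.5-fold minimum of a call, so its share cannot judge the power of the test. In the simulation 50 probes were changed per size. At 162 µg, 28.8% of all genes had an unadjusted p under 0.05 in limma, so these shares may not carry over to the data.

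The members and lists were chosen with earlier results of these data known. All 10 members were to be named, with the genes of each further list called at 162 µg (at most 5 per direction) and the 5 genes of most similar pattern. The result of 1 listed marker gene is not reported here.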

Additional observations from a re-analysis of the deposited data

Results flagged for a closer look

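In 6 of the 40 groups of mice tested, 1 mouse stood apart from the others, its gap to the nearest mouse being above Dixon's 95% limit as a share of the range of the group. Chance gives such a gap in about 1 in 20 groups. For Nfkb1, mouse 3 at 18 µg had a log2 ratio of 1.33 with the next at 0.14, and mouse 3 at 162 µg had 1.26 with the next at -0.12. Both lay on slide 4, and the additional Nfkb1 probe gave -0.50 and -0.73 in these mice. For Nfkb2, mouse 3 at 54 µg had -1.68 with the next at -0.96, and mouse 6 at 162 µg had -0.33 with the next at -1.02. For Relb, mouse 3 at 162 µg had -0.48 with the next at -0.08. For Tnfaip3, mouse 4 at 162 µg had 0.75 with the next at 0.26.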

How the results depend on the processing

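Of the 3 calls at 162 µg, Nfkbia, Birc3 and Icam1, normexp correction kept 1 (Birc3), and median centring and no normalization kept 0. Without a slide term Birc3 was kept and Nfkbia (adjusted p = 0.101) and Icam1 (adjusted p = 0.0505) were lost, and in the deposited table Birc3 was lost (0.67, adjusted p = 0.128), while Tnfaip3 was called in both. With the replicate number as a block it was also 0 (Nfkbia 1.07, Birc3 0.86, Icam1 0.94), but the numbers were not taken to pair the mice. Deviations correlated above 0.1 in 18 of 31 pairs of the same number (median 0.21) and in 38 of 150 pairs of different number (median -0.07), and with slide removed the medians were -0.03 and 0.05. At 18 µg 1 member was called with Cy5 alone, slide as a random block or an adjusted p of at most 0.10, and at 54 µg 1 with the random block or the looser p and 3 with the compared groups only. Between 162 and 18 µg 1 was called with Cy5 alone, the deposited table, the random block, the compared groups only, the looser p or the median over probes. Of the 73 further genes, 1 was called at 18 µg with the replicate block and 2 with the looser p. At 54 µg 0 were called with median centring, no normalization or the replicate block, 8 with the compared groups only and 2 with the looser p. At 162 µg 1 was called with median centring, 0 without normalization, 4 with the replicate block and 14 with no minimum fold. With 1 mouse left out, the members called at 18, 54 and 162 µg ranged from 0 to 1, 0 to 2 and 1 to 3 and those between 162 and 18 µg from 0 to 1, and the further genes called ranged from 0 to 1, 0 to 4 and 5 to 11.

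Directions turned for changes that were not called. At 18 µg median centring and no normalization gave Relb -0.22 and -0.33, Nfkbia -0.38 and -0.55, Nfkbiz -0.11 and -0.23 and Tnfaip3 -0.11 and -0.27, and no normalization gave Nfkb1 -0.15 and Nfkbie -0.10. Nfkbia at 18 µg was -0.062 without a slide term, -0.015 with the random block, -0.19 with the compared groups only and -0.091 to 0.29 with 1 mouse left out. At 162 µg Nfkb1 was -0.031 with median centring, -0.049 without normalization, -0.16 with Cy5 alone, -0.067 without a slide term, -0.020 with the compared groups only, -0.010 with the median over probes and -0.16 to 0.35 with 1 mouse left out. There Nfkbie was -0.019 with median centring and -0.037 without normalization, which gave Relb -0.070 and Nfkbiz -0.064. Nfkb1 at 54 µg was -0.10 without a slide term. The cause was not tested.

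Over all genes, 339, 58 and 1124 were called at 18, 54 and 162 µg, against 60, 4 and 830 in the deposited table, 107, 3 and 324 with median centring, 2, 0 and 5 without normalization, 437, 0 and 367 with the replicate block and 115, 592 and 1166 with the compared groups only. Median centring also changed their split into higher and lower, to 0 and 107 at 18 µg, 1 and 2 at 54 µg and 76 and 248 at 162 µg, from 104 and 235, 36 and 22, and 545 and 579. Quantile normalization of average signals after loess leaves the ratios as they were. The permutation test of the study's methods was not run.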
